A study of Drosophila melanogaster with 2 samples.

Results

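Peaks of the Atf6-eGFP fusion protein that lay just upstream of one-sided promoters are described here. A peak was taken when its summit lay 1 to 500 bp upstream of, or at, the nearest protein-coding transcription start site, and no protein-coding start site of another gene on the opposite strand lay within 1000 bp of that start site. Of the 5846 peaks in the authors' thresholded list of both replicates, 1203 (20.6%) met this rule, at 1049 genes. Of the 13968 protein-coding genes of the annotation, 9544 had at least 1 one-sided start site. The study mapped Atf6 by chromatin immunoprecipitation with sequencing in whole Drosophila melanogaster embryos collected over 0 to 24 h, in 1 group of 2 biological replicates. All embryos came from flies carrying an Atf6-eGFP fusion, recovered with an antibody against GFP, after sonication to a size range given as 200 to 800 without a unit. Embryos of all ages in that window and all their cell types were pooled, so occupancy in 1 cell type or stage cannot be told apart from its share in the embryo. There was no second condition, and the number of reads behind the lists is unknown.

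Atf6 is a basic leucine zipper (bZIP) transcription factor that is anchored in the membrane of the endoplasmic reticulum (ER). In mammals, ER stress sends it to the Golgi apparatus, where proteases release its cytosolic domain, which enters the nucleus and activates genes for chaperones and protein degradation. Mammalian ATF6 binds the ER stress element together with the factor NF-Y, recognising its CCACG part. Promoters with a start site on 1 strand only have a defined upstream side, whereas between divergent genes the upstream side of 1 gene is also that of the other.

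The windows from 50 bp before to 50 bp after the summits of the 3 members of highest signal show what this binding looked like at the sequence level. A further 3 windows show the members of highest signal with a core promoter word or a GAGA site, a repeat bound by GAGA factor. The GAGA site was added after its values were seen. Windows that overlapped an annotated untranslated region were passed over, and 1 chromosome arm was not used here. Sequences are from the RefSeq copy of the dm6 assembly, written 5′ to 3′ on the strand of the gene, with every match of the 16 words named below, on either strand, in capitals. The CG14100 window is chr3L:19590566-19590666 on the minus strand, that of SLC5A11 is chr2L:8205233-8205333 on the minus strand, and that of ph-p is chrX:2137274-2137374 on the minus strand. The RpL27 window is chr3R:25685075-25685175 on the minus strand, that of CG31145 is chr3R:23669797-23669897 on the minus strand, and that of CG9743 is chr3R:30203397-30203497 on the minus strand.
CG14100: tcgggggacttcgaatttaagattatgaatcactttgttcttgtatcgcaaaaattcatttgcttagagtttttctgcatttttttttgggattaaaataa
SLC5A11: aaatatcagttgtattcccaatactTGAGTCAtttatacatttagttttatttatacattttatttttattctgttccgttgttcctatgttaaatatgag
ph-p: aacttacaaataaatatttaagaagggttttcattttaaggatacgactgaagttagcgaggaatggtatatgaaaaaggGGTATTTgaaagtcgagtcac
RpL27: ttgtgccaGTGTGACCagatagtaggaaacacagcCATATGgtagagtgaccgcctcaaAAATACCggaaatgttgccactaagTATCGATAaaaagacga
CG31145: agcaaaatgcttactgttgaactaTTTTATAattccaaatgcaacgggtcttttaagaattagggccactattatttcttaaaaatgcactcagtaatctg
CG9743: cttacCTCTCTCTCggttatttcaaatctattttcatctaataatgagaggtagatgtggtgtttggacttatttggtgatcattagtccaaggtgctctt
G and C made up 29.7% of the CG14100 window, 23.8% of the SLC5A11 window and 32.7% of the ph-p window. The CG14100 window held none of the 16 words, the SLC5A11 window held the AP-1 site TGACTCA, a bZIP site, on the other strand, and the ph-p window held the Motif 6 word GGTATTT. The RpL27 window held the site of the factor M1BP, read on the other strand, and, further toward the gene, a control E-box, Motif 6 on the other strand and the palindromic site of the factor Dref. The CG31145 window held the TATA box word on the other strand, near a summit 188 bp upstream of the start site, so outside the place of a working TATA box. The CG9743 window held the GAGA site on the other strand, as a run with 2 overlapping matches, near a summit 449 bp upstream.

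Regions upstream of one-sided start sites entered the authors' thresholded list more often than most. The authors also deposited a long list of 105892 ranked regions, of which 5.52% were in the thresholded list. Of the 6477 ranked regions upstream of one-sided start sites, 18.6% were in it (95% Wilson interval 17.6 to 19.5%), and the other 5274 serve below as the unlisted upstream regions. Put the other way, 20.6% of listed summits but 5.27% of unlisted ones lay there, a difference of 15.3 percentage points (95% Newcombe interval 14.3 to 16.4). Intervals here and below cover counting error over regions and not the spread between embryos, and a difference was called where its interval excluded 0. The share was lower than at start sites with an opposite start site within 1000 bp, where 36.5% of upstream regions were listed, a difference of -17.9 points (-20.3 to -15.5). It was higher than just downstream of start sites, where 8.00% were listed, by 10.6 points (9.50 to 11.7).

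At one-sided start sites the listed summits lay mainly on the upstream side. Of 1714 listed summits within 500 bp of such a start site, 1203 (70.2%) were upstream, against 5274 of 11669 unlisted summits (45.2%), a difference of 25 points (22.6 to 27.3). The members' median distance was 172 bp upstream (interquartile range 95 to 267), and that of the unlisted upstream regions was 196 bp (89 to 342). The share of upstream regions that were listed was 17.9% within 100 bp, 23.9% from there to 200 bp, 22.2% from there to 300 bp, 15.1% up to 400 bp and 9.86% up to 500 bp. Listing was therefore most frequent between 100 and 300 bp and not at the start site itself. The share of members within 100 bp was 26.7%, against 28.0% of the unlisted regions, and this difference of -1.28 points was not called (-4 to 1.55). In replicate 1 alone the same difference was -6.96 points and called, and in replicate 2 alone it was -1.70 points and not called.

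**Figure D1:**
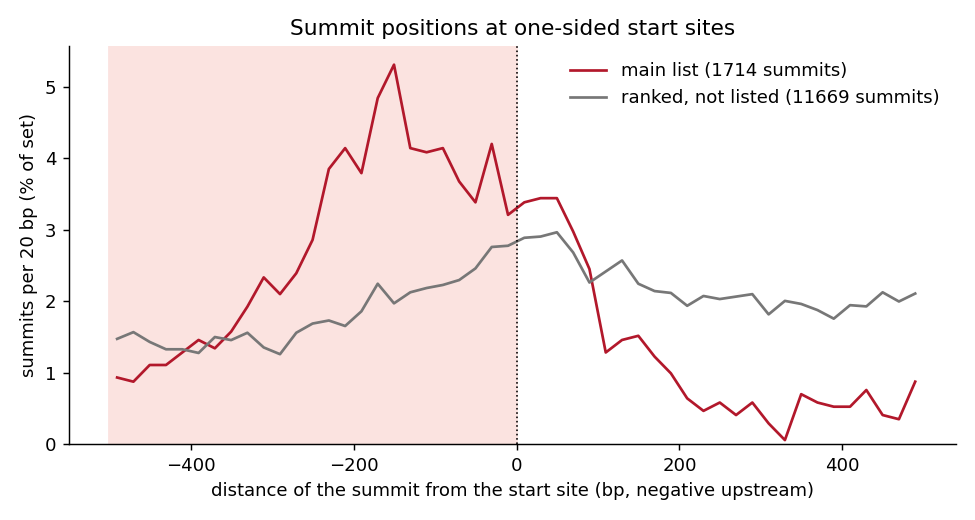
Positions of summits around one-sided start sites, with the distance in bp on the horizontal axis (negative values upstream) and the percent of each set per 20 bp on the vertical axis. The red line (1714 listed summits) is highest between 100 and 300 bp upstream, inside the shaded side from which members were taken, and falls steeply past 100 bp downstream, whereas the grey line (11669 unlisted summits) is highest near the start site.

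The signal of a peak is a score set by the authors whose scale is not stated, and it is used here only to rank and describe regions within 1 list. Members ranged from 2.18 to 1958, with a median of 116 and an interquartile range of 82.7 to 200. The median of the whole thresholded list was 102, and 58.8% of the members lay above it (56.0 to 61.5%). This share was lower than that of upstream peaks with an opposite start site (66.9%, a difference of -8.10 points, -12.5 to -3.53). It was 21.4 points above that of downstream peaks (37.4%, 17.0 to 25.6). Among the 50% of listed peaks with the highest signal, the difference from peaks with an opposite start site was -0.886 points and was not called. Most members were 396 bp wide (973 of 1203), and widths ranged from 99 to 455 bp.

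The strongest member lay 92 bp upstream of CG14100 (3L, 19590440 to 19590803, signal 1958.1), whose sequence is shown above. In the separate replicates its signal was 1098.4 (replicate 1) and 866.5 (replicate 2). The second lay 151 bp upstream of SLC5A11, a gene for a sodium-coupled solute transporter (2L, 8205105 to 8205464, signal 1607.3), with 925.9 and 679.5 in the replicates. The third lay inside ph-p, the proximal polyhomeotic gene of the Polycomb group, 469 bp upstream of an internal start site. It spanned 2137172 to 2137545 on X, with a signal of 1475.3 and 886.0 and 637.1 in the replicates. In each of the 3, replicate 1 gave the higher value.

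Of the 20 members of highest signal, all 20 were also in the thresholded lists of replicate 1 and of replicate 2. After the first 3 came Gapdh2, CG18549, CG1635, Tina-1, Fkbp14, CG31145, CG1888, px, Sox14, gish, amon, eIF6, PAN3, MFS10, REPTOR, MFS18 and papi, from 1417.4 at Gapdh2 down to 918.4 at papi. They include genes for transcription factors (Sox14 of the HMG-box family, and REPTOR, a bZIP factor that acts below the growth kinase complex TORC1), for RNA regulators (PAN3 of mRNA deadenylation, papi of the piRNA pathway, and eIF6 of ribosome assembly), for the prohormone convertase amon and for the kinase gish. The summits of the 20 lay 73 to 469 bp upstream, 2 of them within 100 bp, and 10 lay outside all protein-coding genes. The others, among them those of ph-p and Fkbp14, lay inside the same gene, except that of eIF6, inside another gene on the same strand.

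Over all members the replicates gave medians of 65.4 and 59.5, against 19.1 and 19.5 for the unlisted upstream regions. These are the values of the strongest region overlapping the member in each replicate's own ranked list, which existed for 1201 and 1194 members. Members came from the thresholded list of both replicates together, so higher values than in the unlisted regions follow from the selection. Across the 1192 members found in both, the replicates' values had a Spearman correlation of 0.733, given as a description. In the replicates' own thresholded lists, 640 members (53.2%) overlapped a peak in both, 255 in replicate 1 only, 131 in replicate 2 only and 177 in neither. Of the other 4643 peaks of the list, 40.1% overlapped a peak in both, so members did so more often by 13.1 points (9.98 to 16.3). The share was 54.9% in upstream peaks with an opposite start site, from which the members did not differ beyond counting error (-1.73 points, -6.40 to 2.99), 34.1% in downstream peaks (19.1 points lower than in members, 14.7 to 23.3) and 38.4% in the remaining peaks. The conservative list of the authors held 1009 members (83.9%).

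**Figure D2:**
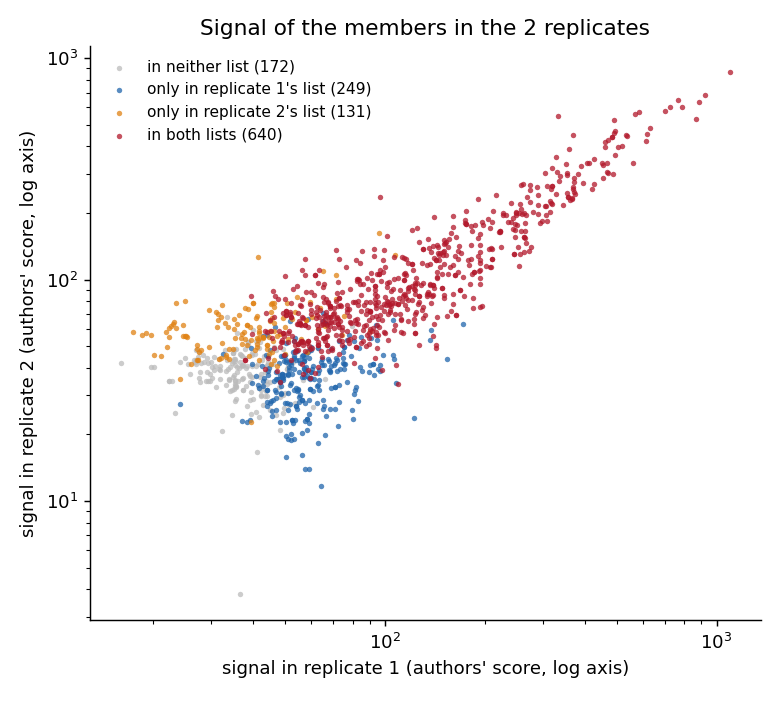
Signal of the 1192 members with a region in both replicates' ranked lists, replicate 1 on the horizontal and replicate 2 on the vertical axis, both log axes in the authors' score. Red points are the 640 members in both thresholded lists and take up the upper right, blue points are in replicate 1's list only, orange points in replicate 2's only, and grey points in neither.

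Presence in both replicates' lists rose with signal from group to group, but the weakest members did not follow this. In the lowest of 4 signal groups (2.18 to 82.7) 15% of the members were in both lists, in the second 21.3%, in the third 78.0% and in the highest (200 to 1958) 98.7%. The signal and the replicates' lists come from the same libraries, so this rise is no independent support. The weakest members had a particular position. Of the 79 members with a signal under 50, 74 (93.7%) overlapped a ranked region of higher signal, against 18 of the other 1124 members (1.60%) and 1749 of 4591 unlisted upstream regions under 50 (38.1%). Of the same 79 members, 36 (45.6%) overlapped a peak in both replicates' lists, against 15% of the whole lowest group. Whether that peak was the stronger neighbour's was not tested. The members of lowest signal were CG42331 (3R, 24771745 to 24772140, signal 2.34) and CG8679 (2L, 21218657 to 21219052, signal 2.18), and both overlapped a stronger region. The replicate values of such members, 75.2 and 49.6 at CG42331, are those of the strongest overlapping region. They may belong to a neighbouring summit, which was not checked. Whether these weak listings mark binding of their own was not tested. Without the 92 members that overlapped a stronger region, and the like regions among the unlisted, the difference in summits within 100 bp was -3.24 points and called, and the other calls on shares, signal, and G and C kept their direction.

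Members were rich in A and T. G and C made up 37.5% ± 11.5 (SD, n = 1203 regions) of the bases within 50 bp of the summit, against 44.0% ± 10.4 in the 5274 unlisted upstream regions, a difference of -6.53 points (95% interval -7.24 to -5.82). The members were lower than downstream peaks (43.7%), a difference of -6.21 points (-7.16 to -5.26). They were higher than upstream peaks with an opposite start site (33.0%) by 4.45 points (3.45 to 5.45). The composition changed with distance among the members: it was 44.7% within 100 bp, 36.4% from there to 200 bp and 33.6 to 33.8% beyond. The unlisted regions fell from 46.8% within 100 bp to 42.1 to 43.3% beyond, so the gap to the members was smallest at the start site.

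The strongest members held the least G and C. From the lowest to the highest of the 4 signal groups the mean fell from 43.6% to 39.8%, 35.6% and 30.7%. Across the members, G and C and signal had a Spearman correlation of -0.432, a description over regions that share the same libraries. Of the 20 strongest members, 19 lay below the members' mean, and they ranged from 21.8% to 41.6%. The exception was MFS10 at 41.6%. Outside the 20, the highest G and C of all members was at Dll, the homeobox gene of limb identity (2R, 24814515 to 24814880, signal 889.8), whose summit window held 69.3%. Its signal was 332.7 in replicate 1 and 550.2 in replicate 2, and it was in both lists. In all, 40 members held over 60%, with a median signal of 82.7, and 17 of them were in both replicates' lists. How base composition affected the recovery of fragments was not tested, since the control library was not analysed here.

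**Figure D3:**
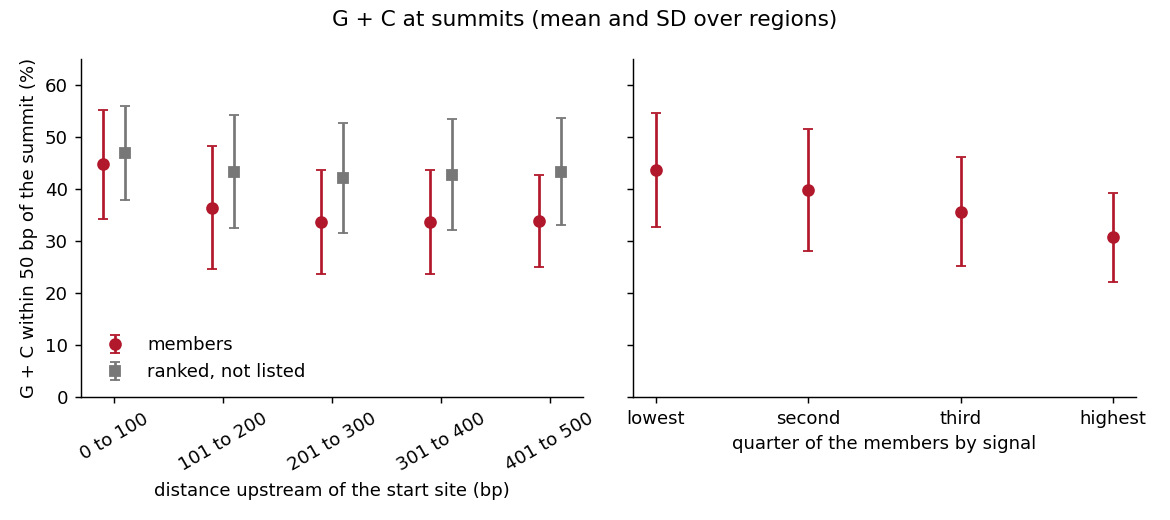
Mean G and C within 50 bp of the summit in percent, with the SD over regions as bars. The left panel gives members (red circles) and unlisted upstream regions (grey squares) by distance from the start site, with members lower at each distance, and the right panel gives the members by signal group, from 43.6% in the lowest to 30.7% in the highest.

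Of 16 named words searched on both strands within 50 bp of the summit, 2 differed between the members and the unlisted upstream regions with intervals widened for the 16 words. The TATA box word TATAAAA was in 8.31% of members and 5.35% of unlisted regions (2.97 points, 0.677 to 5.76). That difference was not called with a window of 300 bp (2.33 points), with 1 start site a gene (2.74 points) or within 25 bp of the summit (1.16 points). The CCACG part of the ER stress element was in 6.15% and 10.9% (-4.73 points, -6.93 to -2.07). With the unlisted regions weighted to the members' G and C, the TATA box difference was -0.268 points and the CCACG difference -1.22 points, and neither was called. Under the same weighting, which was added after the data were seen, the GAGA site (1.78 points) and the M1BP site (1.08 points) were called as higher in the members.

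No known site of Atf6 or of related bZIP factors was called as more frequent in the members than in the unlisted regions. The mammalian ATF6 core TGACGTGG was in 0 of 1203 members and in 5 of 5274 unlisted regions. An approximate upper limit for the members' share, taken as 3 in 1203 and not as a Wilson limit, is 0.249%. The cyclic AMP response element TGACGTCA, bound by CREB and ATF dimers, was in 1 member and 19 unlisted regions. The core ACGT of many bZIP sites was in 16% of members and 19.3% of unlisted regions, which was not called (-6.60 to 0.434), except with a window of 300 bp, where the difference of -4.22 points was called. The core ACGT overlaps the ATF6 core, the cyclic AMP response element and the E-box CACGTG, which share its letters. The AP-1 site TGACTCA was in 0.831% and 1.00%, and the Atf4 composite site TGATGCAAT in 0 members and 2 unlisted regions. The strongest member with CCACG was at Tina-1 (2R, 24942374 to 24942800, signal 1344.0), with 723.6 in replicate 1 and 602.5 in replicate 2.

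The GAGA site GAGAGAG was more frequent in the members than in upstream peaks with an opposite start site. It was in 4.66% of the members, 4.32% of the unlisted upstream regions and 1.94% of downstream peaks, but in 2 of 670 upstream peaks with an opposite start site (0.299%). The members exceeded the last group by 4.36 points (2.22 to 6.52) and the downstream peaks by 2.72 points (0.224 to 5.08). The 56 members with the site had a median distance of 97.5 bp, and held 48.3% ± 7.19 G and C, against 36.9% ± 11.5 in the others. The strongest was CG9743 (644.5, with 370.2 and 261.4 in the replicates), followed by Dysb, a subunit gene of the BLOC-1 complex (364.6, with 182.2 and 173.9). Next came CG6770 (286.0), the cytoskeletal linker gene shot (284.5) and the innexin gene Inx7 (239.3), all in both replicates' lists. The members held the core ACGT (25.5% downstream) and CCACG (11.5% downstream) less often than downstream peaks, and the TATA box word (4% downstream) more often. No other word was called against either group.

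**Figure D4:**
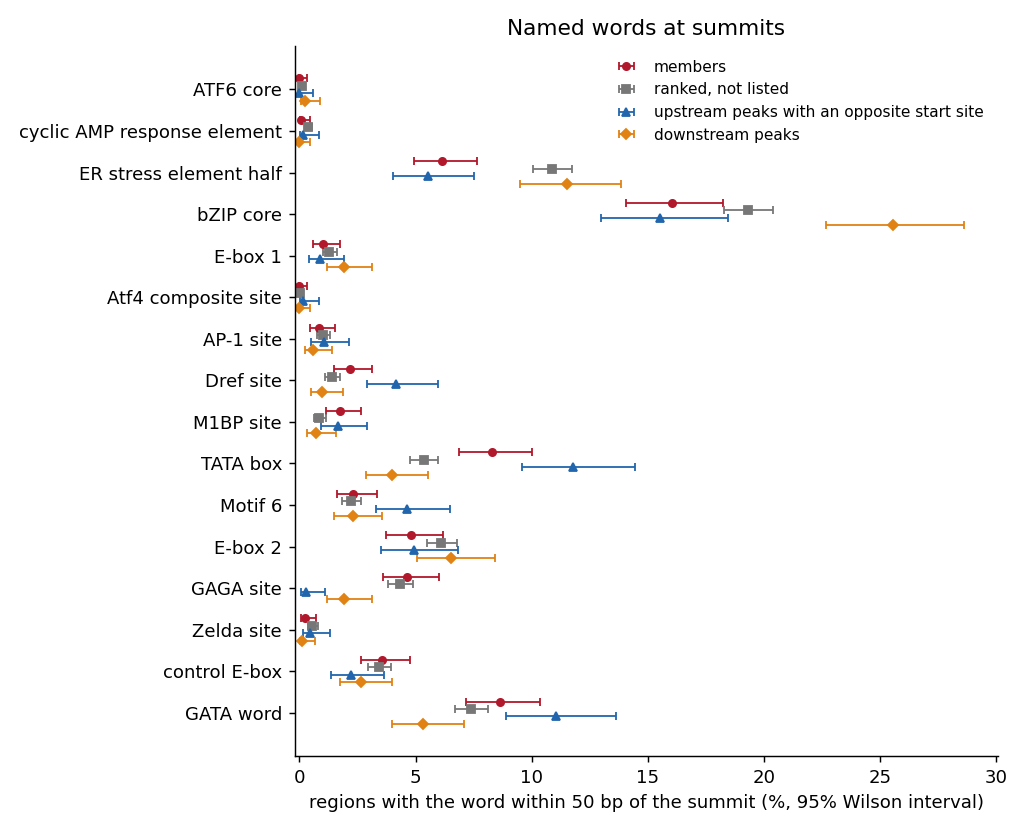
Percent of regions with each of the 16 named words within 50 bp of the summit, with 95% Wilson intervals, for members, unlisted upstream regions, upstream peaks with an opposite start site and downstream peaks. The GAGA site was in 0.299% of the peaks with an opposite start site against 4.66% of members, and the bZIP core is most frequent in downstream peaks (E-box 1 is the first and E-box 2 the second E-box in the order searched).

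Core promoter words were also counted at the start sites themselves, whether or not near the summit, for 1142 one-sided start sites with a member and 11170 with no listed summit within 500 bp, start sites of a gene within 50 bp being joined. The other 745 of the 13057 such start sites lay within 500 bp of a listed summit but had no member of their own, and were in neither group. A TATA box in place, starting 40 to 20 bp upstream on the gene's strand, was present at 1.75% of start sites with a member and 4.98% of those without, a difference of -3.23 points (-4.14 to -1.87, widened for 4 words). Over all 13057 the share was 4.53%. The M1BP site between 100 bp upstream and 50 bp downstream was present at 4.38% and 2.95% (1.43 points, 0.0832 to 3.25). That call depended on the start sites left out, of which 6.17% had the site: with them counted among the start sites without a member, the difference was 1.23 points and not called (-0.118 to 3.05). The call also ended with either replicate alone, at 1.30 points without replicate 2 and 1.41 points without replicate 1. It ended too in the conservative list (1.18 points) and among the 50% of listed peaks with the highest signal (0.493 points). The Dref site (4.29% and 3.55%) and Motif 6 (4.64% and 4.07%) were not called. The members whose start site had a TATA box in place, named after their values were seen, include Hsp27 (signal 544.9), the glutathione transferase genes Mgstl (331.0) and GstD1 (93.6), the Notch target E(spl)m3-HLH (220.9) and the actin gene Act5C (151.9).

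The most over-represented short words were learned without reference to known sites. From 2080 six-letter words, counted with their reverse complements, 10 that were more frequent and 5 that were less frequent in members were picked on arms 2L and 2R and then examined on 3L, 3R and X. On those arms 6 of the 10 and 2 of the 5 were called in the same direction, where over all 2080 words 5.96% were called as higher and 2.40% as lower. ATATTA was in 18.5% of 710 members and 8.21% of unlisted regions, AATATA in 21.4% and 11.2%, and ATAATA in 16.6% and 8.72%. CTATTA was also higher (7.89% and 3.83%), as were TAACTA (7.46% and 3.92%) and, at 9.15% and 5.41%, TAAGCA. In the other direction ATGGAG was in 1.83% and 4.29%, and a G and C rich word, CGCCCA, in 2.25% and 5.50%. With the unlisted regions weighted to the members' G and C, 0 of the 15 words were called.

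Glycolytic enzyme genes had members most often of the 17 gene groups examined. Of all 9544 genes with a one-sided start site, 11.0% had a member, and of the 9 such glycolytic genes 7 did (77.8%, 95% Wilson interval 45.3 to 93.7%). Gapdh2, for glyceraldehyde-3-phosphate dehydrogenase (X, 15867803 to 15868173), had a signal of 1417.4, with 768.0 in replicate 1 and 646.0 in replicate 2. Eno, for enolase (2L, 1727728 to 1728087), had 693.8, with 351.4 and 334.1, and its summit lay inside the gene, upstream of an internal start site. The values were 423.5 at Hex-A, for hexokinase (264.8 and 181.2), and 415.3 at Ldh, for lactate dehydrogenase (256.9 and 165.9). They were 299.3 at PyK, for pyruvate kinase (151.1 and 151.7), 199.5 at Pgk, for phosphoglycerate kinase (116.1 and 82.9), and 113.3 at Tpi, for triosephosphate isomerase (59.3 and 48.5). All 7 were in both replicates' lists, 154 to 323 bp upstream, with 17.8 to 48.5% G and C. Ald1 had no member but an unlisted upstream region (39.2), and a listed summit that was no member of it (88.3) lay within 500 bp of one of its start sites. Pfk had no ranked upstream region.

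Genes of the unfolded protein response and ER folding came next, with a member at 6 of the 12 that had a one-sided start site (50%, 25.4 to 74.6%). Fkbp14, for a prolyl isomerase (2R, 21497152 to 21497521), had a signal of 1279.1, with 698.3 in replicate 1 and 580.5 in replicate 2. Atf3, for a bZIP factor (X, 1275336 to 1275687), had 859.5, with 461.3 and 396.5. Xbp1, for the bZIP factor that is made after Ire1 splices its mRNA (2R, 21143335 to 21143504), had 334.0, with 182.0 and 143.2. The thioredoxin-domain protein gene prtp had 280.4 (135.6 and 138.6) and the calnexin gene Cnx99A 170.9 (93.9 and 74.2), and these 5 genes were in both replicates' lists. The fly Atf4 gene crc had 100 (57.4 and 38.1) and was in replicate 1's list only. The summits at crc and Fkbp14 lay inside the gene itself, upstream of an internal start site. The other one-sided genes were Hsc70-3, the fly BiP chaperone, whose strongest upstream region was unlisted (63.3), CrebA (20.2) and PEK (9.5), both also unlisted, and Atf6, CaBP1 and Pdi, which had no ranked upstream region. Of the 26 genes of the group 14 had no one-sided start site. Several of these had a listed summit within 500 bp of a start site of another kind, among them Hrd3 (568.6) and Herp (341.0), both of ER-associated degradation.

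Cytosolic ribosomal protein genes had a member at 15 of 38 genes (39.5%, 25.6 to 55.3%). The strongest was RpL23A (3L, 1668652 to 1668845), with a signal of 332.9 and replicate values of 161.1 and 173.7, followed by RpL11 (2R, 19442116 to 19442511), with 292.8 and replicate values of 135.0 and 153.2. Their peaks lay close to the start site, at a median of 39 bp upstream with 12 of 15 within 100 bp, and held 45.9% ± 6.66 G and C. The share and these distances count upstream summits alone. Several other one-sided ribosomal genes had no member but a listed summit within 500 bp of a start site, among them RpL30 (300.1) and RpS4 (197.2). Others, such as RpL15 and RpL21, had neither. The glycolytic members lay at a median of 222 bp, with 0 of 7 within 100 bp and 27.3% ± 10.8 G and C. The ribosomal members had a median signal of 134, and 11 of the 15 were in both lists, against a median of 415 and 7 of 7 for the glycolytic members. RpL27, whose Dref and M1BP sites are shown above, had 165.3, with replicate values of 50 and 104.3.

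Developmental and other housekeeping groups were closer to the 11.0% of all one-sided genes or below it. Embryonic patterning genes had a member at 6 of 32 (18.8%): Dll (889.8), the heart specification gene tin (431.4, with 246.7 and 177.8), the maternal determinant bcd (150.3), cad (103.3), the Wnt ligand gene wg (75.7) and sog (69.5), a gene for an inhibitor of BMP signalling. The share was 9.38% without replicate 2 and 15.6% without replicate 1. These settings had fewer members in all (943 and 824), so their shares are not set against the 11.0%. Of these 6 genes, Dll, tin and bcd were in both replicates' lists. Cytosolic heat shock genes had 2 of 13, the small heat shock protein genes Hsp27 (544.9, with 316.4 and 221.5) and Hsp26 (317.7, with 158.2 and 162.2). Translation initiation factors had 3 of 25, led by eIF6 (985.7) and eIF2D (158.3). V-ATPase genes had 2 of 20 (Vha16-1 with 152.2, Vha100-4 with 83.5) and autophagy genes 1 of 6 (Atg8a with 138.0).

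Several groups had few or no members. Respiratory chain and ATP synthase genes had 1 of 45 (UQCR-6.4L, 76.8, interval 0.393 to 11.6%). Mitochondrial ribosomal protein genes had 1 of 15 (mRpL10, 63.5, interval 1.19 to 29.8%), with 0 of 15 in either replicate alone. Proteasome genes had 0 of 23 (0 to 14.3%) and aminoacyl-tRNA synthetases 0 of 11 (0 to 25.9%). The Sm and LSm group and the Golgi group had 0 of 2 each (0 to 65.8%). These Wilson intervals all included the 11.0% of all one-sided genes, so a lower share was not shown for these groups. In the Golgi group only 2 of 12 genes were one-sided. Listed summits lay within 500 bp of start sites of its other genes, among them Ugalt (2416.1) and Stt3A (579.5). Chemoreceptor and odorant-binding protein genes had 2 of 193 (1.04%, 0.285 to 3.70%; Obp83g with 115.8 and Obp99b with 101.5), cytochrome P450 genes 1 of 75 (Cyp317a1, 189.0) and cuticle protein genes 0 of 106. In 7 of the 17 groups the share was above that of all one-sided genes, and in 6 to 9 groups over the alternative settings. The groups were described by their counts alone, and how the share depends on expression in the embryo was not tested. They were chosen with earlier results of these data known, and their intervals were not widened for the 17 groups. An interval that leaves out the 11.0% is therefore a description and not a test.

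**Figure D5:**
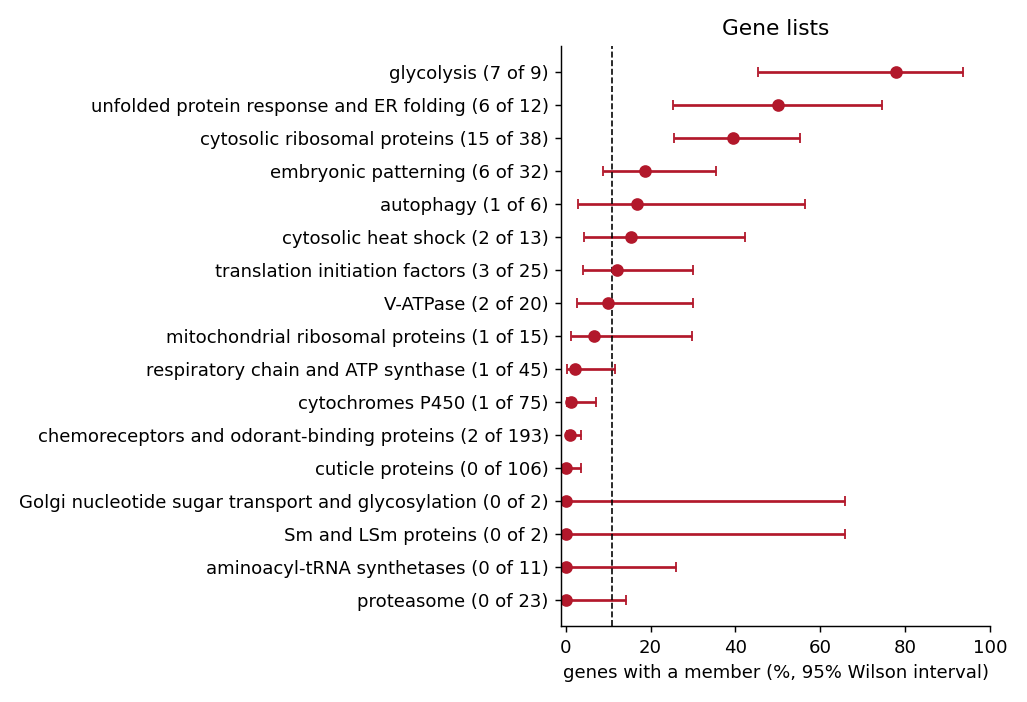
Share of one-sided genes with a member in each of the 17 gene groups in percent, with 95% Wilson intervals and the count of genes in each label. The dashed line is the share over all one-sided genes (11.0%), and glycolysis (77.8%), the unfolded protein response and ER folding (50%) and cytosolic ribosomal proteins (39.5%) have intervals wholly to its right. The groups were chosen with earlier results known and the intervals are not widened for the 17 groups, so this position is not a test.

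Of the 1049 genes, 128 had more than 1 member, and the most was 5. At Rtnl1, the gene for an ER-shaping reticulon, the 5 members lay upstream of its start sites with signals of 783.4, 510.4, 174.1, 142.3 and 10.6, at 185 to 396 bp. The first 3 of these were in both replicates' lists, with 466.5 and 308.0 in the replicates for the strongest. The member of 10.6 overlapped a stronger region. Members at 1 gene share their locus and are not independent.

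Members lay outside protein-coding genes more often than the unlisted upstream regions, in 53.0% against 46.8% (6.16 points, 2.17 to 10.1, intervals widened for 4 places). They also lay more often inside the same gene, upstream of an internal start site (39.5% against 33.4%, 6.09 points, 2.27 to 10). They lay less often inside another gene on the same strand (3.66% against 12.9%, -9.20 points, -10.8 to -7.25) or on the other strand (3.91% against 6.96%, -3.05 points, -4.55 to -1.21). By arm, the share of one-sided genes with a member was 11.5% on 2L, 11.4% on 2R, 11.1% on 3L, 9.54% on 3R, 9.23% on chromosome 4 and 12.3% on X, and 0 of 23 genes on Y had one.

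At the limits of the rule, prtp (280.4) and Pino (178.6) were the farthest members, 498 bp upstream. Just beyond lay Mkp3 (436) and CG2003 (149), both 501 bp upstream. An opposite start site 1000 bp away kept RpS7 (147) out, and 1 at 1015 bp left Eno in. A further 25 upstream regions had a −log10 IDR (irreproducible discovery rate) of at least 2, as every member did, but were absent from the thresholded list. The strongest was at larp, for an RNA-binding protein (3R, 28326427 to 28326775, signal 1193), with 674 in replicate 1 and 523 in replicate 2, followed by cbt (511, with 260 and 260). The list also left out a second upstream region at Pgk (207). Most of the 25 regions lay on 3R, and how this bears on that arm's share of genes with a member was not tested.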

How the data were processed

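The members, words and gene lists were chosen with earlier results of these data known. The authors deposited peak lists on dm6: for each replicate and for both together, a long list ranked by irreproducible discovery rate (IDR) and a thresholded list, besides a conservative list. No source used here names the aligner, the peak caller or the depth. The control was not analysed here. Per the file contents, the deposited signal column (scale not stated) is the authors' score, and the deposited IDR is a −log10 value, at least 2 in every member. Replicate values came from each replicate's own ranked list. In 2 columns of per-replicate values no replicate is named, and these were not used.

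Start sites of protein-coding genes came from Ensembl release 115, BDGP6 version 54, and sequence from the RefSeq copy of that assembly. Summits were placed by the nearest start site, without joining. Start sites of a gene within 50 bp were joined only where core promoter words were counted at start sites. Peaks sharing 1 bp or more counted as overlapping. Shares have Wilson intervals and differences of shares Newcombe intervals at 95%, widened by the Bonferroni method within each word family. Means have normal intervals. Nothing was tested between samples, since there is 1 group, and p-values were not computed. Word counting was tested on simulated data in which words were planted at known shares. Genes were named by a rule: the 20 members of highest signal, the 2 strongest of each gene list, every unfolded protein response gene with a member, the strongest holder of each called word, and the lowest and outermost members. All glycolytic members, the patterning members, RpL27, Rtnl1, the strongest GAGA holders and the TATA box holders were named after their values were seen. Tools were pandas 2.3.3 and numpy 2.4.6 under Python 3.11.15, with SciPy 1.17.1 for intervals and matplotlib 3.10.9 for plots.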

Additional observations from a re-analysis of the deposited data

How the results depend on the processing

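Alternatives were the conservative list, each replicate's own list, the 50% of the list with the highest signal, a 300 bp window, opposite start sites within 500 or 2000 bp, 1 start site a gene, other word windows, a background standardised to distance, and, added after the data were seen, a background standardised to G and C and the removal of regions that overlap a stronger region. The upstream share (9.62 to 18.9 points), G and C against unlisted regions (-9.80 to -4.96 points) and presence in both lists (6.56 to 13.3 points) kept their calls under every alternative run. The share listed and the signal against downstream peaks did too. The signal difference from peaks with an opposite start site was -0.886 points, with no call, in the 50% with the highest signal. The difference in summits within 100 bp was called at -7.03 points in that 50%, -7.58 points with the 300 bp window and -3.24 points without regions that overlap a stronger region, and ranged from -6.96 to -1.70 points over the single replicates. With 1 start site a gene it had the opposite sign, 2.96 points, and was not called (-0.481 to 6.56). The count of words called at summits was 1 with 1 start site a gene or with 25 bp around the summit and 4 with 100 bp. The count at promoters was 1 with the conservative list, the 50% of highest signal, 300 bp, without regions that overlap a stronger region, or, added after the data were seen, with the start sites near another listed summit kept, and 1 to 1 over the single replicates. The count of six-letter words was 3 with 1 start site a gene, 5 with 25 bp and 0 with the background standardised to G and C, under which the TATA box difference at summits was -0.268 points. Gene groups above the share of all genes numbered 6 to 9. Shares of single groups changed, and fewer members were listed without replicate 2 (943) or replicate 1 (824). V-ATPase at 5% in either replicate alone and translation initiation factors at 8% without replicate 2 stayed inside their main intervals. Mitochondrial ribosomal proteins at 0% in either replicate alone fell below theirs. So did cytochrome P450 genes at 0% without replicate 2 and the respiratory chain group at 0% in the conservative list. Autophagy genes at 0% with opposite start sites within 2000 bp did too, as did chemoreceptor and odorant-binding protein genes at 0% without replicate 1. The cause of these changes was not tested. For single replicates, presence in both lists has no value. No paired analysis was possible because there is 1 group. With 2 replicates and unknown depth, a region missing from a list is not shown to be unbound.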
